A study of Mus musculus with 768 samples.

Results

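Tumor-infiltrating NK cells with transcripts of the chemokines Xcl1 and Ccl4 and with no transcript of Ifng made up 14.7% of 726 kept cells. There were 47 of them among 360 WT cells (13.1%, exact binomial 95% interval 9.75 to 16.98) and 60 among the PD-1-/- cells (16.4%, 12.8 to 20.6). They were chosen by the levels of these 3 transcripts alone, so those levels are given as a description. A transcript counted as present at an RPKM above 0, a read count scaled by the length of the gene and by the mapped reads of the cell, and a cell was kept with 1000 to 3500 detected genes, counting genes found in at least 3 of the 768 wells. These cells are called members below. Their comparison group on each plate was the kept cells in which Xcl1, Ccl4 and Ifng were all at 0, 48 WT and 53 PD-1-/- cells, called cells with none of the 3.

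The tumors were MTAP1A, a fibrosarcoma that first arose in a mouse lacking Tap1, and grew in C57BL/6 mice that were WT or PD-1-/-. The tumors of 3 mice of each genotype were pooled, and viable NK1.1+ cells without CD3 on their surface were sorted singly into 1 plate per genotype for SMART-SEQ2, which reads full-length transcripts and adds no molecular identifiers. Each genotype was thus 1 sample without a replicate. The genotype cannot be told apart from its plate, and no p-value was computed. Intervals cover counting error among cells only, and every fold is a description of these 2 pools. Pdcd1, the gene of PD-1, was found in 2 of 47 WT members and in 13 of 60 PD-1-/- members. RPKM was given per gene and not per exon, so these values do not check the deletion.

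XCL1 is a chemokine of NK cells and activated T cells that attracts dendritic cells carrying its receptor XCR1. CCL3 and CCL4 are related chemokines that draw monocytes, T cells and other NK cells. NK cells release these chemokines and IFN-gamma when their activating receptors or cytokine receptors are engaged, and calcium entry with NFAT, MAP kinase signals with AP-1 and EGR factors, and NF-kappaB drive such genes in lymphocytes.

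The promoters of Xcl1, Ccl3 and Ifng are shown. Xcl1 and Ifng define the members. Among genes past the level limits given below, Ccl3 ranked first in members over cells with none of the 3. Of Xcl1, Ccl3, Ccl4 and Ifng, 3 genes were matched in the RefSeq table of GRCm38.p6 and Ccl4 was not. Each sequence holds the 250 bases before the start of the gene, read 5′ to 3′ on the strand of the gene, and capitals mark GGAAA, the core bound by NFAT and other factors, or its reverse complement. Xcl1 lies at chr1:164935523-164935772 (minus strand), Ccl3 at chr11:83649379-83649628 (minus strand) and Ifng at chr10:118440796-118441045 (plus strand).
Xcl1: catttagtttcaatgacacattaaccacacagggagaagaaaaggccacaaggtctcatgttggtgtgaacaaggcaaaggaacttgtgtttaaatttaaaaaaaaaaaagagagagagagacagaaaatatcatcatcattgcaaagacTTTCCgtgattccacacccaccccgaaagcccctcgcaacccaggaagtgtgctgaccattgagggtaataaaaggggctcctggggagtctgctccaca
Ccl3: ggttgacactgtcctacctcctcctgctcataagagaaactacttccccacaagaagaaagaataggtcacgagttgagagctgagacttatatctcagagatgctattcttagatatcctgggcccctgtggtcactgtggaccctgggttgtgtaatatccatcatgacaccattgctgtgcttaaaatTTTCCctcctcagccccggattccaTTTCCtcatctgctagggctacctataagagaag
Ifng: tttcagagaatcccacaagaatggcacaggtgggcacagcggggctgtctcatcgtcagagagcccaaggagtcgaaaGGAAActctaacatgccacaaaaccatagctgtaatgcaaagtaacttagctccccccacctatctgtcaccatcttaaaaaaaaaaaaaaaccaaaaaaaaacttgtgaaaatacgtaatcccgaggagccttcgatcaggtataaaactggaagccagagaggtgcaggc

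The Xcl1 promoter held GGAAA once, 100 bases before the start. That of Ccl3 held it at 59 and at 34 bases, and that of Ifng farther upstream, as the capitals show. On both strands, GGAAA was in 55.6% of 32851 promoters of the same length. TGANTCA (AP-1, in 6.75% of promoters), TGACGTCA (CRE, in 1.55%) and GCGTGGGCG (EGR, in 0.536%) were in none of these 3 windows. The matches did not overlap, and a match of letters is a description of the sequence only.

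The members were the second-largest of the 8 combinations among PD-1-/- cells and the third among WT cells, where they and the cells with none of the 3 differed by 1 cell. Cells with Xcl1 alone were the largest combination on both plates.

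Ccl4 was nearly as frequent without Xcl1 as with it. Of WT cells with Xcl1, 28.4% (23.2 to 34.1) held Ccl4, beside 26.8% (17.6 to 37.8) of those without. On the PD-1-/- plate these shares were 39.8% (33.8 to 46.1) and 35.5% (26.6 to 45.1). Of the cells with both chemokines, 40.5% held Ifng on the WT plate and 41.2% on the other. In cells with Xcl1 and no Ccl4 the Ifng shares were 22.1% and 24.7%.

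**Figure D1:**
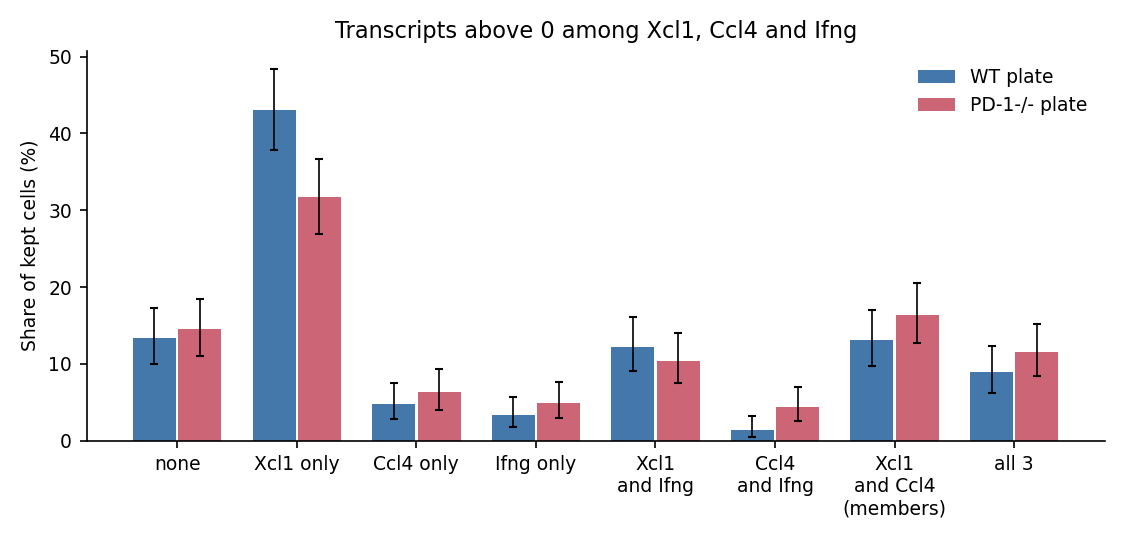
Share of kept cells (%, y axis from 0) with each of the 8 combinations of Xcl1, Ccl4 and Ifng above 0 RPKM, by plate, with exact binomial 95% intervals over the kept cells of that plate. The members were 13.1% of WT and 16.4% of PD-1-/- cells, and cells with Xcl1 alone were 43.1% and 31.7%.

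The levels that chose the members spanned several orders of magnitude. Xcl1 ranged from 27.7 to 18750 RPKM in WT members with a median of 1306, and from 4.78 to 17200 with a median of 1346 in PD-1-/- members. Ccl4 ranged from 5.33 to 31370 RPKM with a median of 280.5 in WT, and from 2.92 to 34810 with a median of 417.6 in PD-1-/- members. The rule was thus passed by faint and by very strong transcripts.

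The members just inside the rule rested on single reads. Whole reads could be recovered from the equal steps of low RPKM values, and 3 WT and 9 PD-1-/- members had at most 3 Ccl4 reads. For Xcl1 the fewest reads in a WT member were 4, and 6 PD-1-/- members had at most 3. Just outside the rule, the cells with all 3 transcripts (32 WT, 42 PD-1-/-) had Ifng down to 10.2 RPKM in WT and 1.62 RPKM in PD-1-/-.

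The members carried the defining transcripts of NK cells. Klrb1c, the NK1.1 antigen used in the sort, was found in 44 of 47 members on the WT plate and 58 of 60 on the other. Ncr1, the activating receptor NKp46, was found in 43 of 47 and 58 of 60. Of the 8 NK markers, a WT member held a median of 8 and a PD-1-/- member a median of 7, and all 8 stood between -0.91 and 0.39 as log2 ratios of members over cells with none of the 3 on both plates.

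CD3 transcripts were present although the sort excluded CD3 on the surface. Any of Cd3d, Cd3e and Cd3g was found in 15 of 47 WT members (31.9%, 19.1 to 47.1) and 6 of 48 WT cells with none of the 3 (12.5%, 4.73 to 25.2). On the PD-1-/- plate the order was the opposite, with 9 of 60 members (15%, 7.10 to 26.6) and 14 of 53 cells with none of the 3 (26.4%, 15.3 to 40.3). Of the 10 T cell markers, 5 were seen in WT members and 6 in PD-1-/- members. Cd4, Cd5 and Themis were at 0 in every member and in every cell with none of the 3. The summed T cell markers ranged from 0 to 5387 RPKM in WT members and from 0 to 2193 in WT cells with none of the 3, and from 0 to 4133 and 0 to 5164 on the PD-1-/- plate.

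Transcripts of cycling cells were seen in more members than cells with none of the 3 on both plates. Any of Mki67, Top2a, Birc5, Ccna2 and Cdk1 was found in 36.2% of WT members and 16.7% of WT cells with none of the 3, and in 30% and 15.1% on the PD-1-/- plate. The summed level ran from 0 to 474.1 and from 0 to 608.2 RPKM on the WT plate, and from 0 to 1516 and from 0 to 530.5 on the PD-1-/- plate, with a median of 0 in all 4 groups. Cells with Xcl1 alone held any of the 5 in 14.84% and 28.45%, and cells with all 3 transcripts in 12.5% and 26.19%. The log2 ratios of Top2a (-0.54 and 2.59), Birc5 (-0.13 and 0.03) and Cdk1 (1.99 and -0.68) went in opposite directions on the plates. Those of Mki67 (1.56 and 0.09) and Ccna2 (1.80 and 1.28) were above 0 on both. Markers of other cells were rare: any neutrophil, B cell or fibrosarcoma marker was found in at most 3 WT and 2 PD-1-/- members, and any myeloid marker in 8 and 6. Of the dendritic markers Itgax, which activated NK cells also hold, was in 33 of 47 and 38 of 60 members against 23 of 48 and 28 of 53 cells, while Xcr1 was in 0 of 47, which allows up to 6.38%, and 2 of 60. Their part in the values below was not tested.

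Members had more detected genes than the cells they were compared with. The median was 2427 genes in WT and 2340 in PD-1-/- members, beside 2168.5 and 1872 in cells with none of the 3. Recovered reads, counted over 10319 genes, had medians of 345382 and 351244.5 in members and of 313091.5 and 322710 in cells with none of the 3. Over all genes passing the level limits the share of cells was higher in members by a median of 7.23 (WT) and 6.57 (PD-1-/-) percentage points, while the median log2 ratio of mean RPKM was 0.04 and 0.02. For the leading genes, shares are also given at 100000 recovered reads per cell, which left out 3 WT and 2 PD-1-/- members and 6 and 5 cells with none of the 3.

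Across all genes, most of those past 2-fold on one plate were not past it on the other. A gene entered if its mean reached 10 RPKM and it was detected in at least 20% of cells in one of the compared groups, Xcl1, Ccl4 and Ifng left out, and its ratio was log2 of mean RPKM + 1 in members over cells with none of the 3. Of 4465 genes on the WT plate, 9.7% were at least 2-fold higher in members and 7.03% at least 2-fold lower. Of 4256 on the PD-1-/- plate, 8.04% were higher and 6.04% lower. Of 3779 genes that entered on both, 46 (1.22%) were at least 2-fold higher on both plates, 26 (0.688%) lower on both, and 32 (0.847%) higher on one and lower on the other. The 46 genes were 15.7% of those of the 3779 that were higher on the WT plate and 19.9% of those higher on the PD-1-/- plate. Against all other kept cells in place of the cells with none of the 3, 2 genes were at least 2-fold higher on both plates, Ccl3 and Gzmc.

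**Figure D2:**
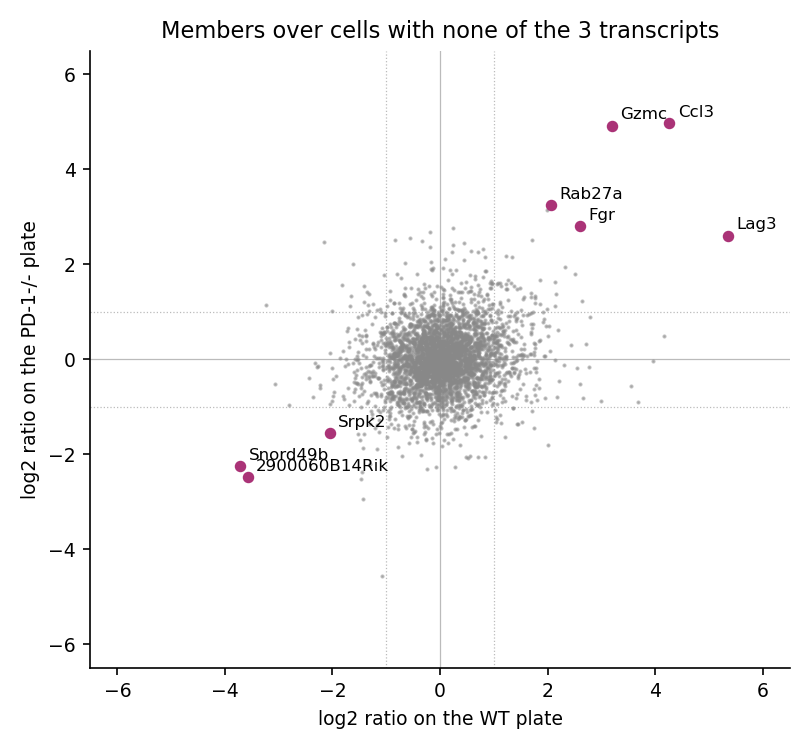
Each point is 1 of 3779 genes, with the log2 ratio of mean RPKM + 1 in members over cells with none of the 3 on the WT plate (x axis) and on the PD-1-/- plate (y axis), and dotted lines at 2-fold. The named genes Ccl3, Gzmc, Lag3, Fgr and Rab27a stand beyond 2-fold on both plates in members, and 2900060B14Rik, Snord49b and Srpk2 beyond it in the other direction.

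Ccl3, the chemokine closest to Ccl4 in function, ranked first. It was found in 23 of 47 WT members (48.9%, 34.1 to 63.9) and 4 of 48 cells with none of the 3 (8.33%, 2.32 to 20). In the PD-1-/- pool it was found in 27 of 60 members (45%, 32.1 to 58.4) and 2 of 53 cells (3.77%, 0.460 to 13). The intervals did not overlap on either plate. At 100000 reads the shares were 50% and 7.14% in WT and 41.4% and 2.08% in PD-1-/-.

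Where present, Ccl3 was strong. In WT members with it, Ccl3 ran from 13.9 to 13680 RPKM with a median of 253.1, and in PD-1-/- members from 2.72 to 12560 with a median of 469.1. The log2 ratio of the means was 4.26 (WT) and 4.97 (PD-1-/-). It was 0.65 on the WT plate when only plate rows A to H were used, and above 1 under the other alternatives on both plates.

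Ccl3 followed Ccl4 rather than Xcl1 among the combinations. In cells with Xcl1 alone it was found in 9 WT (5.81%) and 8 PD-1-/- cells (6.90%). In cells with Ccl4 alone the counts were 7 of 17 (41.2%, 18.4 to 67.1) and 9 of 23 (39.1%, 19.7 to 61.5). In cells with all 3 transcripts they were 19 of 32 (59.4%, 40.6 to 76.3) and 19 of 42 (45.2%, 29.8 to 61.3), which overlapped the members.

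**Figure D3:**
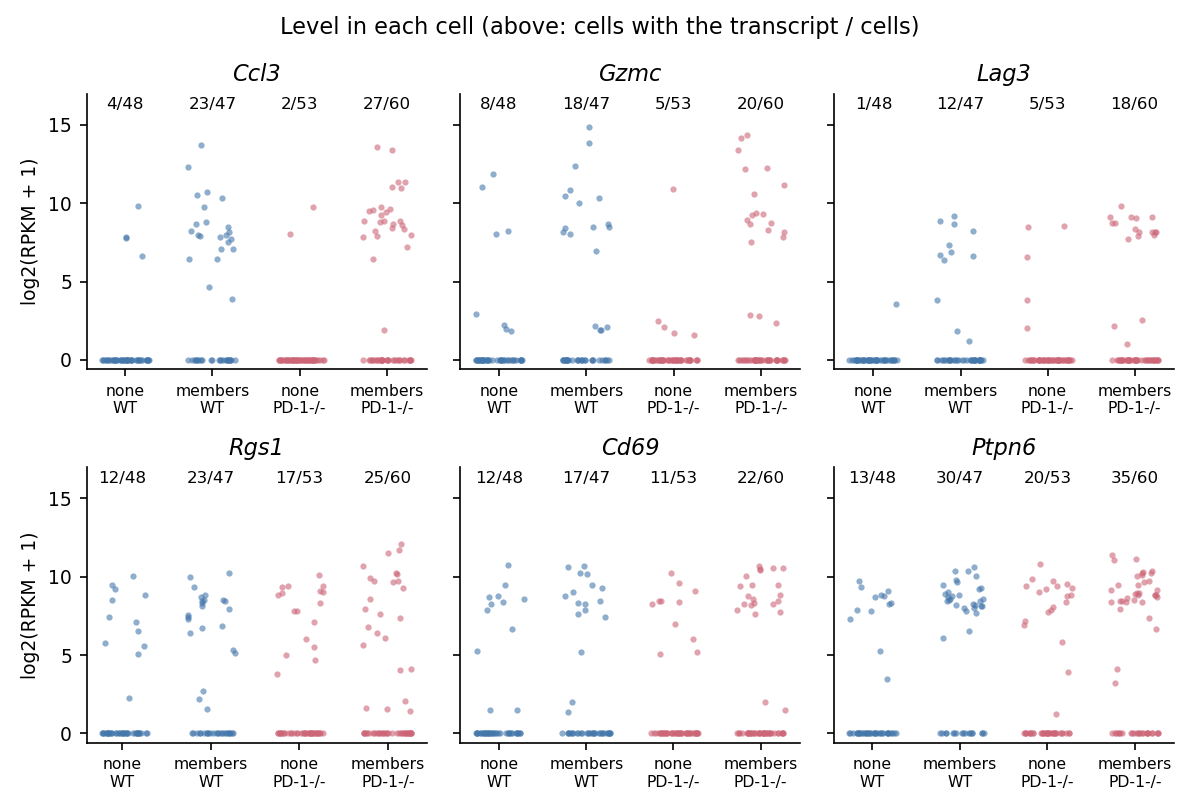
Level of 6 genes in every member and every cell with none of the 3, as log2(RPKM + 1) on the y axis, one point per cell, with the cells holding the transcript over all cells printed above. For Ccl3, 23 of 47 and 27 of 60 members lie above 0, beside 4 of 48 and 2 of 53 other cells, and above 0 the clouds of all 6 genes overlap.

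Of the other chemokines, Ccl5 alone was frequent enough to pass the level limits. Ccl5, which resting NK cells also hold, was found in 47 of 47 and 55 of 60 members, at a median of 4029 and 3551 RPKM. In cells with none of the 3 its medians were 4213 and 5458 RPKM, and the log2 ratio was 0.13 and -0.41. Of 9 chemokines other than Xcl1 and Ccl4, 2 passed the level limits on both plates, and 1, Ccl3, was 2-fold higher on both. Of 9 chemokine receptors, 3 passed and none was 2-fold different on both.

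The members with Ccl3 also had more Ccl4 and more Xcl1. With Ccl3, the median Ccl4 was 641.8 RPKM in 23 WT and 1696 in 27 PD-1-/- members. Without it, the median was 132.1 in 24 WT and 264.5 in 33 PD-1-/- members. Xcl1 had medians of 2368 and 2196 RPKM with Ccl3 and of 520.1 and 758.2 without. The ranges overlapped, since Ccl4 in members without Ccl3 reached 529.7 (WT) and 4256 RPKM (PD-1-/-).

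**Figure D4:**
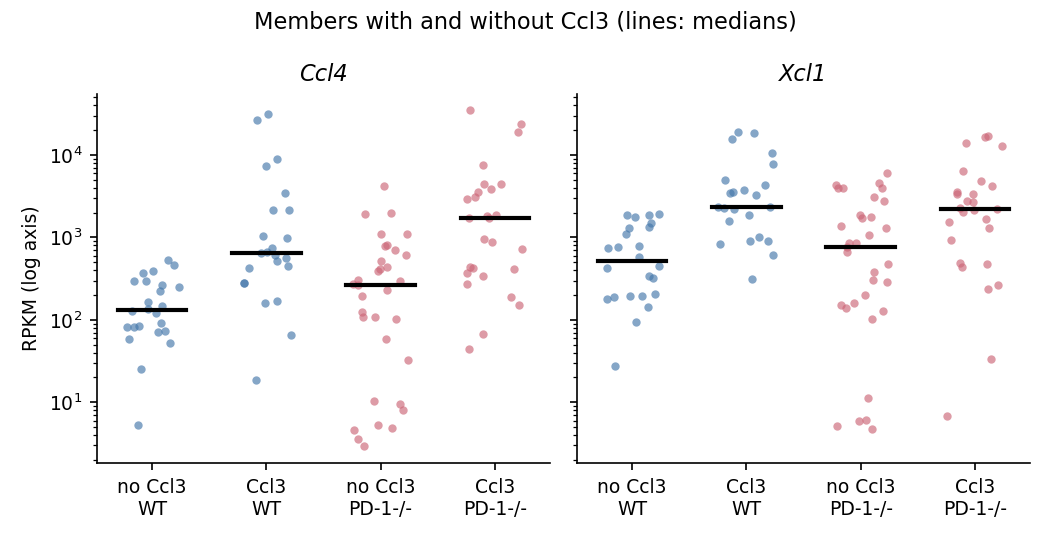
Ccl4 and Xcl1 level (RPKM, log axis) in each member with and without Ccl3 on the WT plate (23 and 24 cells) and the PD-1-/- plate (27 and 33 cells), with a line at the median. The median Ccl4 with Ccl3 was 641.8 and 1696 RPKM, beside 132.1 and 264.5 without, and the clouds overlap.

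Some early response transcripts were also found in more members. EGR1, EGR2, EGR3 and NR4A1 are transcription factors induced within minutes by receptor signals. Any of the 4 transcripts was found in 18 of 47 WT members (38.3%, 24.5 to 53.6) and 5 of 48 cells with none of the 3 (10.4%, 3.47 to 22.7). In PD-1-/- it was found in 18 of 60 members (30%, 18.8 to 43.2) and 6 of 53 cells (11.3%, 4.27 to 23). Cells with Xcl1 alone were at 17.4% and 15.5%, cells with Ccl4 alone at 35.3% and 17.4%, and cells with all 3 transcripts at 34.4% and 33.3%. These 4 genes were put together after their values were seen.

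Egr1 was the most frequent of the 4. It was found in 9 of 47 WT members against 3 of 48 cells, and in 13 of 60 PD-1-/- members against 1 of 53. Its mean level was 57.2 against 1.02 RPKM on the WT plate and 50.4 against 0.115 on the PD-1-/- plate. At 100000 reads the shares were 15.9% and 7.14% in WT and 19% and 2.08% in PD-1-/-.

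Nr4a1 and Egr3 were rarer. Nr4a1 was found in 8 of 47 and 6 of 60 members, beside 2 of 48 and 1 of 53 cells with none of the 3. Egr3 was in 4 of 47 and 7 of 60 members and in 0 of 48 and 0 of 53 cells, which allows a share of up to 6.25% and 5.66%. Neither of them, nor Egr1 and Egr2, reached detection in 20% of cells on both plates, so none of the 4 is among the 46 genes. Within the members, 12 of 23 WT cells with Ccl3 and 12 of 27 PD-1-/- cells with Ccl3 held one of the 4, so Ccl3 without any of them was seen in 11 and 15.

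Of 20 early response genes, 11 passed the level limits on both plates, of which 5 were above 0 on both and 1 below. The median log2 ratio of the 11 was 0.12 and 0.44, and it leaves out the other 9, among them the 4 genes above. The median over all 3779 genes was 0.03 and 0.01. Summed over all 20, their level had a mean of 1279 RPKM in WT members and 919.3 in cells with none of the 3, and of 1284 and 785.6 on the PD-1-/- plate. The medians of this sum were closer, 979.5 and 852.2 RPKM on the WT plate and 892.1 and 731 on the PD-1-/- plate. Of the 11, only Cd69, an early activation antigen, was at least 2-fold higher on both, with 1.05 and 1.59, although with all wells the WT value was -0.16. It was found in 36.2% of WT members and 25% of cells with none of the 3, and in 36.7% and 20.8% on the PD-1-/- plate. Cd69 was in 38.1% and 31.9% of cells with Xcl1 alone. Fos was at 0.29 and 1.06, and Junb at 0.34 and 0.09.

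**Figure D5:**
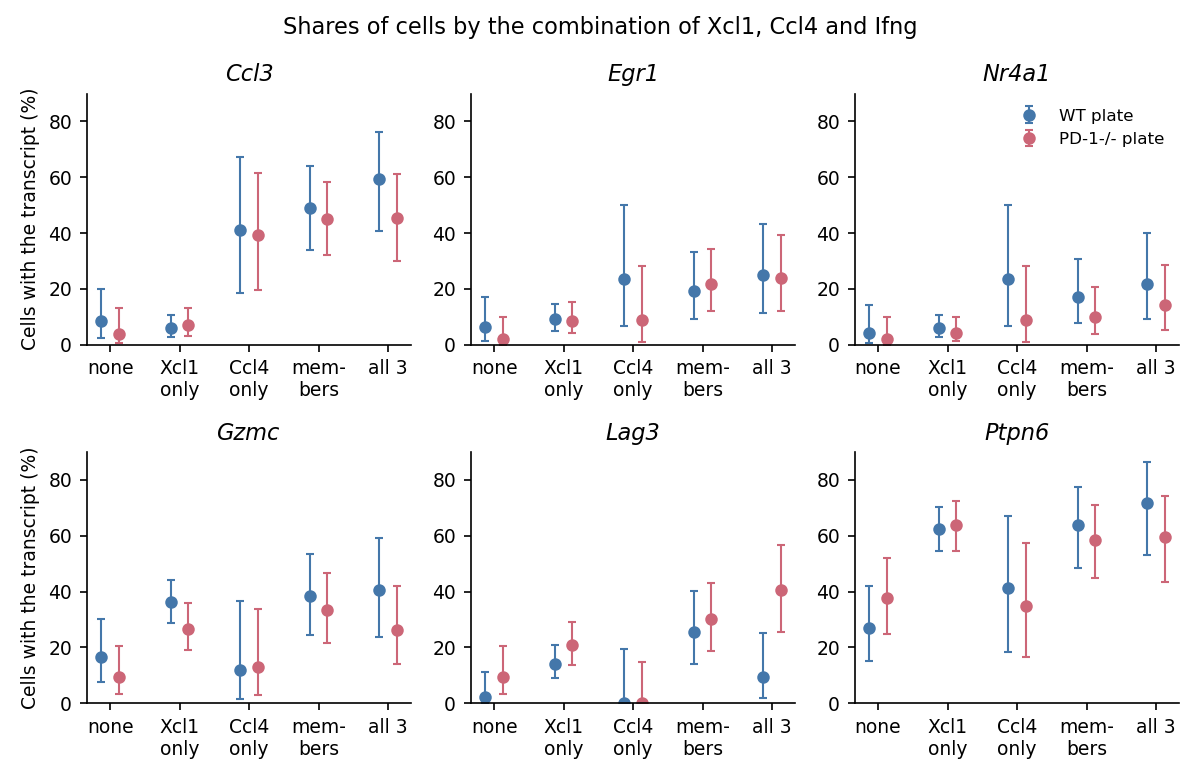
Share of cells (%) with each of 6 transcripts in the cells with none of the 3, with Xcl1 alone, with Ccl4 alone, in members and in cells with all 3, with exact binomial 95% intervals, by plate. Ccl3 is high in the 3 groups with Ccl4, Gzmc in the groups with Xcl1, and Ptpn6 is at 62.6% and 63.8% in cells with Xcl1 alone, beside 63.8% and 58.3% in members.

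Feedback and signal genes showed single differences. RGS1, which dampens chemokine receptor signals and was named with Xcl1 and Ccl4 as a marker of these cells, was found in 23 of 47 WT members (48.9%) against 12 of 48 (25%). Among PD-1-/- cells it was found in 25 of 60 (41.7%) against 17 of 53 (32.1%). At 100000 reads the shares were 43.2% and 23.8% in WT and 36.2% and 31.3% in PD-1-/-. Its log2 ratio was 0.92 and 1.50, so it was below 2-fold on the WT plate, and against all other kept cells it was -0.96 and 0.42. Cells with Xcl1 alone held Rgs1 in 47.1% and 49.1%, close to the share in members.

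Ptpn6, the phosphatase SHP-1 that acts below inhibitory receptors, was found in 30 of 47 WT members (63.8%, 48.5 to 77.3) against 13 of 48 (27.1%, 15.3 to 41.8). The PD-1-/- counts were 35 of 60 (58.3%, 44.9 to 70.9) against 20 of 53 (37.7%, 24.8 to 52.1). At 100000 reads the shares were 65.9% and 31% in WT and 58.6% and 37.5% in PD-1-/-. The log2 ratio was 1.77 and 1.19. Cells with Xcl1 alone were at 62.6% and 63.8%, as high as the members. Of 18 feedback genes, 13 passed the limits on both plates and Ptpn6 alone was 2-fold higher on both. Spry2, an inhibitor of MAP kinase signals, stood at 0.67 and 1.05, and Dusp2, a MAP kinase phosphatase, at 0.77 and 0.66.

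Nfkbid, a nuclear regulator of NF-kappaB, was the single gene of 13 in its list that was 2-fold higher on both plates, with 2.15 and 1.38. It was found in 15 of 47 and 16 of 60 members, and in 7 of 48 and 5 of 53 cells with none of the 3. Against all other kept cells its ratio on the PD-1-/- plate was -0.29. Nfkb1 had 1.22 and -0.30, and Nfkbia 1.38 and 0.36.

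Receptors and effector genes differed one by one. Lag3, an inhibitory receptor of activated lymphocytes, was found in 12 of 47 WT members (25.5%, 13.9 to 40.3) against 1 of 48 (2.08%, 0.0527 to 11.1). The PD-1-/- counts were 18 of 60 (30%, 18.9 to 43.2) against 5 of 53 (9.43%, 3.13 to 20.7). Thinned to 100000 reads, 25% and 2.38% of WT and 25.9% and 10.4% of PD-1-/- cells held it. The log2 ratio was 5.35 and 2.60, and the WT value rested on 8 reads in 1 cell of the compared group. In cells with Ccl4 alone Lag3 was found in 0 of 17 and 0 of 23, which allows a share of up to 17.6% and 13%. In cells with Xcl1 alone it was found in 14.2% and 20.7%.

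Crtam, an adhesion receptor of activated NK and CD8 T cells, was found in 17 of 47 and 13 of 60 members against 8 of 48 and 3 of 53 cells. Its log2 ratio was 2.32 and 1.93. Tnfrsf9, the costimulatory receptor 4-1BB, was found in 72.3% and 61.7% of members against 54.2% and 50.9%, with 0.93 on both plates. Of cells with Xcl1 alone, 67.7% and 69% held Tnfrsf9, and 24.5% and 21.6% held Crtam. Of 7 genes of the TNF family and costimulation that passed, Crtam was the single one at 2-fold on both, and of 4 coinhibitory receptors, Lag3.

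Gzmc, a granzyme, was found in 18 of 47 WT members (38.3%, 24.5 to 53.6) against 8 of 48 (16.7%, 7.48 to 30.2). For PD-1-/- cells it was in 20 of 60 (33.3%, 21.7 to 46.7) against 5 of 53 (9.43%, 3.13 to 20.7). Thinned to 100000 reads, the shares were 29.6% and 11.9% in WT and 27.6% and 10.4% in PD-1-/-. The log2 ratio was 3.19 and 4.92, with means set by few cells, the highest of which reached 30060 RPKM in WT and 20510 in PD-1-/- members. On the WT plate the ratio was -0.88 within plate rows A to H and -2.11 within cells of 2000 to 2600 detected genes. Granzyme genes lie in a cluster of near copies, so that reads may be split among them.

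Gzmc did not go with Ccl3. Of WT members with Ccl3, 39.1% held Gzmc, and of those without, 37.5%. On the PD-1-/- plate both shares were 33.3%. Cells with Xcl1 alone held Gzmc in 36.1% and 26.7%, and cells with Ccl4 alone in 11.8% and 13%.

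The main cytotoxic genes stayed within 2-fold by their means. Gzmb, the main granzyme of activated NK cells, had a median of 1495 RPKM in WT and 2778 in PD-1-/- members, beside 583.3 and 1065 in cells with none of the 3. The log2 ratio of its means was -0.16 and 0.71. Prf1, which encodes perforin, was found in 41 of 47 and 59 of 60 members, with 0.21 and 0.76. Of 9 granule genes that passed, Gzmc alone was at least 2-fold higher on both plates. Tnf, an effector cytokine, was in 8 of 47 and 6 of 60 members against 1 of 48 and 1 of 53 cells. Over cells with Xcl1 alone, the log2 ratio of Tnf in members was 0.06 and -0.58.

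Other genes followed among the largest ratios. Fgr, a Src family kinase, had 2.60 and 2.80 and was found in 34% and 23.3% of members against 14.6% and 7.55%. Rab27a, which brings cytotoxic granules to the membrane, had 2.06 and 3.25 and was found in 23.4% and 28.3% against 10.4% and 7.55%. Orai1, the pore of the store-operated calcium channel, had 1.71 and 2.52, with 29.8% and 21.7% against 10.4% and 7.55%. Over cells with Xcl1 alone, the ratios in members were 0.90 and 0.66 for Fgr, -0.11 and 0.43 for Rab27a and 1.60 and 0.64 for Orai1. None of these was at 2-fold on both plates.

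Mapkapk3, a kinase below p38, had 2.14 and 1.63, with 25.5% and 40% of members against 10.4% and 15.1%. Ramp1, a subunit of the receptor of the neuropeptide CGRP, had 1.99 and 3.15, and against all other kept cells -0.00 on the PD-1-/- plate. Afmid (2.51 and 1.80), 2700089E24Rik (1.86 and 1.67), Ctage5 (1.48 and 1.51), Foxn3 (1.44 and 1.49) and Rfk (1.68 and 1.39) complete the 15 genes with the largest ratios. Over cells with Xcl1 alone, Mapkapk3 was at 0.40 and 0.22, Ramp1 at 1.55 and -0.61 and Afmid at 0.25 and -0.20. In that comparison 2700089E24Rik had 0.42 and 0.94, Ctage5 0.71 and 0.55, Foxn3 0.45 and 0.54 and Rfk 0.51 and 0.30. Within plate rows A to H, Foxn3 was at -0.10 on the WT plate and Rfk at -0.01 on the PD-1-/- plate. Slc2a3, the glucose transporter GLUT3, was at 1.26 and 1.24, the 1 gene of 10 glycolysis genes at 2-fold on both plates.

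Among genes lower in members, S1pr1, the receptor that lets lymphocytes leave tissue, was found in 5 of 47 WT members (10.6%, 3.55 to 23.1) against 11 of 48 (22.9%, 12 to 37.3). The PD-1-/- counts were 4 of 60 (6.67%, 1.85 to 16.2) against 11 of 53 (20.8%, 10.8 to 34.1). The log2 ratio was -1.08 and -4.56, and within plate rows A to H it was 0.24 on the WT plate. Klf2, the factor that drives S1pr1, had -0.45 and -0.90, and was in 46.8% of WT members against 41.7% and in 25% of PD-1-/- members against 50.9%. Of 6 genes of mature circulating NK cells that passed, S1pr1 alone was 2-fold lower on both plates, 4 were below 0 on both and none above, with a median of -0.27 and -0.59. The direction depended on the compared group. Members over cells with Xcl1 alone had 0.12 and -3.68 for S1pr1, 0.15 and 0.84 for Klf2 and 0.98 and 2.21 for Klrg1. For Ly6c2 the values were 0.13 and 0.76, for Itgam -0.09 and 0.67, and for S1pr5 -0.41 and 0.93.

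Eomes, a lineage factor of NK cells, had -0.91 and -0.45 and was found in 61.7% and 48.3% of members against 75% and 62.3%. Over cells with Xcl1 alone, its ratio in members was 0.50 and 0.07. Emb, an adhesion glycoprotein, had -0.50 and -1.38. Tcf7, a factor of early NK cells, had 0.56 and -2.04, in opposite directions on the plates.

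The 10 genes with the largest ratios in the lower direction are outside the 20 lists. Srpk2, a kinase of splicing factors, had -2.05 and -1.56 and was found in 34% and 20% of members against 47.9% and 28.3%, and within plate rows A to H it was at 0.16 on the PD-1-/- plate. Ngly1, an enzyme that removes sugar chains from misfolded proteins, had -1.45 and -2.38, with 17% and 10% against 22.9% and 24.5%. Gbe1, the glycogen branching enzyme, had -1.44 and -1.87, and Degs2, a desaturase of sphingolipids, -1.43 and -2.94.

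Bnip3l (-1.52 and -1.58), Trpm7 (-1.49 and -1.70), 1600020E01Rik (-1.47 and -2.53) and Arhgef18 (-1.41 and -1.57) followed. 2900060B14Rik had -3.58 and -2.48, and Snord49b -3.71 and -2.25. Snord49b was found in more members (29.8% and 40%) than other cells (16.7% and 24.5%), at a median of 1 or 2 reads where present, and it lies inside another gene whose reads it may share. After thinning Snord49b was at 0.59 and 1.35, and within plate rows A to H 2900060B14Rik was at 0.09 on the PD-1-/- plate.

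In the remaining lists, no gene past the level limits was at least 2-fold different in one direction on both plates. MHC class I and peptide loading genes, 8 of 8 passing, had a median of 0.05 and 0.16. Activating receptors and adaptors had -0.14 and -0.08 over 11 genes, lineage transcription factors -0.16 and -0.19 over 9, and housekeeping genes -0.02 and -0.15 over 5. RGS proteins (0.68 and 0.37 over 5), heat shock genes (0.15 and 0.18 over 6) and cytokine receptors (-0.11 and 0.04 over 7) were among them. Interferon-stimulated genes had -0.39 and 0.73 over 4, effector cytokines 0.61 and -0.13 over 2, which leaves out Tnf, and resident and immature NK genes 0.50 and -0.43 over 7, with plates on opposite sides of 0.

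Between the cells with all 3 transcripts and the members, small shares of genes were past 2-fold on both plates, as in the main comparison. Of 3940 genes, 20 (0.508%) were at least 2-fold higher in cells with all 3 than in members on both plates and 39 (0.99%) lower, while 51 were higher on one and lower on the other. For members over cells with none of the 3, the shares were 1.22% and 0.688%. Across genes, the ratios of the plates had a Pearson r of 0.01, beside 0.18 in the main comparison. Ccl3 had a log2 ratio of 0.54 and 1.31 over members, and Egr1 0.37 and 1.35. Lag3 was found in 3 of 32 WT cells with all 3 transcripts and 17 of 42 PD-1-/- cells, with -0.80 and -0.34. Fgr had -2.19 and -0.75.

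Among the 15 genes with the largest ratios, the log2 ratio of PD-1-/- over WT members ran from -1.29 for Nfkbid and -1.26 for Crtam to 1.04 for Lag3. It was 0.24 for Ccl3 and -0.14 for Gzmc. The Lag3 ratio was 3.79 in cells with none of the 3, where 5 of 53 and 1 of 48 cells held it. Of 4598 genes, 6.24% were at least 2-fold higher in PD-1-/- members and 6.61% lower, with a median log2 ratio of -0.04.

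The largest of these were Cluap1 (4.55), Mbd1 (4.10), Ufsp2 (3.50), Gna11 (3.39) and Cdkn2c (3.19) in the higher direction. In cells with none of the 3 the same ratio was -3.05, -0.01, -0.47, -0.45 and 1.73. Tmem184c (-3.45), Rnpep (-2.72), Ppa2 (-2.57) and Sugp2 (-2.57) were among the lowest, beside 1.18, -0.57, -0.70 and -1.11. Of these genes, Mbd1 encodes a reader of methylated DNA and Cdkn2c a cell cycle inhibitor, and for want of a second pool no difference between the genotypes was assessed.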

How the data were processed

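RPKM values (reads scaled by gene length and by mapped reads), as deposited, cover 24490 gene entries in each of 768 single cell wells, 384 WT and 384 PD-1-/-. Of the kept wells 360 were WT and 366 PD-1-/-, and 107 met the rule. The submitters' processing notes name TopHat and Cufflinks and the builds mm9 and mm10, with no role, order or version, and the annotation is not given in the sources used here. No value was scaled further. The study also removed cells rich in apoptotic transcripts, which was not done here, and no doublets were called in sorted wells. A total of 279 symbols stood on 771 entries, which were kept apart.

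Log2 ratios are of mean RPKM with a pseudocount of 1, within a plate. Counts of genes are of log2 ratios of at least 1 in size. Shares have exact (Clopper-Pearson) 95% intervals, and a share of 0 is given with the share that 3 cells would make. With 1 pool per genotype there was no test. Whole reads were recovered from low RPKM values for 10319 genes: 692837 of 711872 values under 60 reads (97.3%) lay within 0.0003, relative, of a whole number. Cells were thinned to 100000 of these reads (seed 42), leaving out shallower cells.

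The genes named are the 15 with the largest rise and 10 with the largest fall by the smaller of the plates' ratios, 5 and 5 between the genotypes within members, and genes of 20 lists and 8 marker lists. Some genes that this rule names are not reported here. The members and lists were chosen with earlier results of these data known, and the list genes described in the text were picked after their values were seen. In all, 16 alternative settings were planned and run. Python 3.11.15, numpy 2.4.6, pandas 2.3.3, scipy 1.17.1 and matplotlib 3.10.9 were used, and scripts were tested on simulated data.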

Additional observations from a re-analysis of the deposited data

Results flagged for a closer look

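Among the 42 wells removed for fewer than 1000 or more than 3500 detected genes, 5 met the same rule of Xcl1 and Ccl4 above 0 and Ifng at 0 (11.9%, exact binomial 95% interval 3.98 to 25.6). These wells lie outside every comparison of the report. Their share is over both plates together, and its interval holds the share of members on the WT plate (13.1%) and on the PD-1-/- plate (16.4%).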

How the results depend on the processing

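No paired analysis was possible because the numbers in the labels name single wells and no result comes from a test. Under the 7 settings that changed which cells were counted, the share of members stayed within its interval, from 10.1% to 15.9% of WT and from 13.7% to 19% of PD-1-/- cells. In plate rows A and B alone, which was none of these settings, members were 8 of 38 WT (21.1%) and 12 of 45 PD-1-/- cells (26.7%). The counts of genes at least 2-fold higher and lower on both plates (1.22% and 0.688% of genes tested) moved with the setting. They were 2.8% and 2.54% in plate rows A to H, 3.56% and 2.28% in the lower rows of the plate (I to P), and 2.9% and 2.82% in cells of 2000 to 2600 detected genes. In these subsets 3.74% to 5.06% of genes went past 2-fold in opposite directions, beside 0.847%. They were 0.529% and 0.212% with a pseudocount of 10, 4.76% and 0.159% with mean log2 values, and 0.0514% and 0.206% against all other kept cells. Without a limit on the share and from a mean of 1 RPKM they were 4.75% and 5.39%, and from 50 RPKM and 40% of cells 0.401% and 0.241%. The share of lower genes was 0.441% with 10 RPKM as present, 1.44% without cells with a CD3 transcript and 0.552% after thinning. The cause was not tested.

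Of 1808 values of 65 genes under 14 settings, 76 had another sign than the value reported or rounded to 0. Of these, 25 had another sign and were of genes at least 2-fold different on that plate and past the level limits on both. Among the 25, Snord49b came most often: 3.92 on the PD-1-/- plate at 1500 to 3000 genes, 0.03 (WT) without CD3 cells, 1.97 (PD-1-/-) in rows A to H, 2.31 (WT) in rows I to P, 0.43 and 1.10 as mean log2 values, 0.13 (PD-1-/-) against all other cells, 0.59 and 1.35 after thinning and 1.11 (PD-1-/-) at 2000 to 2600 genes. 2900060B14Rik reached 1.04, 0.09 and 0.47 on the PD-1-/- plate at 1500 to 3000 genes, in rows A to H and at 2000 to 2600 genes. In rows A to H the WT values were -0.88 for Gzmc, 0.24 for S1pr1 and -0.10 for Foxn3, and the PD-1-/- values -0.01 for Rfk and 0.16 for Srpk2. Against all other cells the PD-1-/- values were -0.00 for Ramp1, -0.29 for Nfkbid and -0.28 for Rfk. At 2000 to 2600 genes Gzmc (WT) was -2.11, Degs2 (WT) 0.42 and Arhgef18 (PD-1-/-) 0.31. Cd69 (WT) was -0.16 over all wells. Ccl3 kept its direction in all 14 settings on both plates, from 0.65 to 8.62 (WT) and from 1.17 to 10.07 (PD-1-/-).

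A transcript at 0 is one without a read at this depth, so cells called negative for Ifng, Ccl4 or Xcl1 are not shown to lack it. Groups of cells were compared within the 1 pool of each genotype. The genotypes were compared between pools, each on its own plate. The intervals cover counting error among cells only.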

Other observations

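Some receptor and marker genes that the report does not describe were found in more members than cells with none of the 3 on both plates. Il2ra, the high-affinity chain of the IL-2 receptor, was in 7 of 47 WT and 5 of 60 PD-1-/- members, beside 0 of 48 cells, which allows a share of up to 6.25%, and 2 of 53 cells. Cxcr6, a chemokine receptor of resident lymphocytes, was in 7 of 47 and 14 of 60 members, beside 2 of 48 and 8 of 53 cells. Cd160, a receptor of the immunoglobulin superfamily, was in 36.2% and 48.3% of members, beside 25% and 24.5%. Cd7, an early marker of NK and T cells, was in 74.5% and 66.7% of members, beside 47.9% and 62.3%. Over cells with Xcl1 alone, the log2 ratio in members was -0.15 and -0.29 for Cd160 and 0.51 and -0.05 for Cd7. In that comparison Il2ra had 1.75 and 1.84 and Cxcr6 3.19 and 0.88. Over all genes passing the level limits, the share of cells was higher in members by a median of 7.2 (WT) and 6.6 (PD-1-/-) percentage points. On the PD-1-/- plate the gaps of Il2ra and Cd7 were smaller than this median. The choice of these genes followed their values. Over cells with none of the 3, Il2ra (4.60 and 1.52) and Cxcr6 (1.44 and 1.40) were at least 2-fold higher on both plates. Neither passed the level limits on both. Cd160 (0.63 and 1.38) and Cd7 (1.20 and 0.61) passed them and were not 2-fold higher on both.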
